A study of Homo sapiens with 2 samples.

Results

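Chromosome 10 carries *PLAU*, the gene of urokinase-type plasminogen activator (*uPA*), at which the gRNAs of this ChIP-seq experiment were aimed. All peaks of the deposited list whose chromosome column reads chr10 were taken, and no measured value entered the choice. There were 502 such peaks among 7757 in the whole list (6.47%) and among 7383 on the 22 autosomes. HEK293T cells, an established human embryonic kidney line, had been transfected with 500 ng of plasmid for dCas9-BFP-DNMT3A, a nuclease-dead Cas9 joined to a blue fluorescent protein and the catalytic domain of the DNA methyltransferase DNMT3A, together with 500 ng of plasmids for 5 *uPA* gRNAs named T1 to T5. After 48 hours, chromatin was immunoprecipitated with an antibody to the HA tag, and an input sample of HEK293T DNA without antibody was sequenced beside it. The methods speak of triplicates, whereas the labels list 1 ChIP and 1 input sample, so there was no replicate check, a ChIP without gRNAs was not analysed here, and no peak can be assigned to 1 of the 5 gRNAs by the experiment. The tests below describe this 1 list, and every interval is a 95% interval of counting error only, which neighbouring peaks make too narrow.

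A gRNA leads dCas9 to DNA that pairs with it and is followed by a short protospacer adjacent motif, NGG. Pairing starts at the end of the gRNA next to this motif, the seed, and short seed matches are known to be enough for transient binding at sites that the gRNA was not designed for. *PLAU* encodes a secreted serine protease that turns plasminogen into plasmin, and its promoter has a dense CpG island. Peaks away from *PLAU* are therefore described by what they share with the gRNAs, above all with T2, whose last bases are nearly all G and A.

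The gRNA sequences are shown first because each peak below is described by its match to them. Capitals mark the last 11 bases, which pair next to the NGG.
T1: gtgagcgttGCGGAAGCACG
T2: gagccgggcGGGAGAGGGAG
T3: gagtcaaggCGCCCCGTCCC
T4: gcccggggaTCTCAGGACCG
T5: gggacaggtGGACCCTGGCC
Each matched all 20 bases of a site at the start of *PLAU* with an NGG behind it. In hg19 (GRCh37), T1 matched chr10:75670761-75670783 and T2 matched chr10:75670819-75670841, both on the plus strand and both upstream of the first exon of the canonical transcript. The T5 site overlapped the UTR of that exon, and the T3 and T4 sites lay in no annotated exon. The reference sequence from the summit of the *PLAU* peak to the end of the T2 site, chr10:75670697-75670841 on the plus strand, is shown with the T1 and T2 sites and their NGG in capitals, since it gives the distance between the strongest ChIP signal and both sites.
PLAU upstream region: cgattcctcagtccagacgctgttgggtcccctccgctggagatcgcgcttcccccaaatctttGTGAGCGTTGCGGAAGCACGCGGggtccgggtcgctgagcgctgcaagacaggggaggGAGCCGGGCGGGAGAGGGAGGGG

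*PLAU* (ENSG00000122861) was annotated at chr10:75668935-75677254 on the plus strand and held 1 peak, at chr10:75669472-75671059. Its summit, 75670697, lay 193 bp before the start of the canonical transcript, in an intron of transcripts that start further upstream. The peak held 62 tags, the ChIP reads counted in it. Its fold enrichment, the ratio to the local input background, was 4.21. Its score (-10 times log10 of the *P* value from MACS, the peak caller) was 89.6. The false discovery rate (FDR), obtained by swapping ChIP and input, was 21%. Among the 502 peaks of the chromosome the target peak ranked 154 by fold enrichment, 50 by tags and 14 by score, so peaks that were not at the target were stronger by each measure. It was CpG-dense, with 62 CpG sites in 1588 bp and 53.3% GC, the highest number of CpG sites among the 502 peaks. The centre of the T1 site lay 75 bp from the summit and that of T2 133 bp. The T4 and T5 sites lay inside the peak as well, at 298 and 231 bp, and the T3 site lay 407 bp from the summit, past the end of the peak. No full site was thus centred within 70 bp of the summit, the distance used for matches below, which is the one given in the methods.

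Peaks on chromosome 10 were denser than on most autosomes. There were 3.82 per sequenced Mb (Poisson interval 3.50 to 4.17) against 2.69 (2.63 to 2.76) on the other 21 autosomes together, a ratio of 1.42 (interval 1.29 to 1.55; two-sided exact binomial test given sequenced length, *P* = 6.27e-13, Benjamini-Hochberg adjusted over the 9 tests 5.65e-12). Chromosome 10 ranked 3 of 22 by this density, and its interval overlapped those of chromosome 22 (3.88 to 5.32), chromosome 15 (3.33 to 4.18) and chromosome 6 (3.26 to 3.84), the closest in the order, but not that of chromosome 1 (4.35 to 4.91). With 5.65 protein-coding gene starts per Mb it ranked 15 of 22, so its place by peaks was not its place by genes. The density stood above that of the other autosomes both for peaks with the T2 seed, at 0.701 against 0.464 per Mb, and for those without it, at 3.12 against 2.23 per Mb.

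The individual peaks were not unusual in size. On chromosome 10 a peak held a median of 35 tags (range 17 to 184), had a fold enrichment of 3.80 (2.29 to 9.61) and was 946.5 bp long (396 to 3629). On the other autosomes the medians were 34 tags, 3.86 and 914 bp. A score of at least 50, a *P* value of 1e-05 or below, was reached by 81 of the 502 peaks (16.1%), with 15.7% over all autosomal peaks as background. The share did not differ detectably from that of the other autosomes (15.7%; Fisher's exact test, *P* = 0.8, adjusted 0.8). The FDR was 100% for 409 peaks of chromosome 10 (81.5%) and under 25% for 13 (2.59%), and 0 peaks had an FDR of 5% or less. On the other autosomes these shares were 81.8% and 2.34%, again with 0 peaks at 5% or less. Of the 13 peaks under 25%, 11 held the T2 seed, against 44 of the 409 at 100%. Low FDR thus went with the T2 seed, of which no test was made.

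The T2 seed is its last 5 bases, GGGAG, followed by NGG. Within 70 bp of the summit it was found in 92 of the 502 peaks (18.3%, Wilson interval 15.2 to 21.9), with 17.3% of all autosomal peaks as background. The share on the other autosomes was 17.2%, and the difference of 1.12 percentage points was not detectable (Fisher's exact test, *P* = 0.541, adjusted 0.68). An unbroken match of at least 11 bases was held by 47 peaks (9.36%), against a background of 9.62%. The target chromosome thus had more peaks with a T2 match per Mb but not a detectably larger share of them. No summit had a match of 12 bases or more (0 of 502, which allows a share of up to 0.598%, counting 3 peaks as the limit of a count of 0). Other gRNAs were rare at summits: the 5-base seed of T1 was found in 3 peaks, of T3 in 3, of T4 in 9 (1.79%) and of T5 in 11 (2.19%). Elsewhere on the autosomes 0.392% of peaks held the T1 seed, 1.15% that of T3, 2.46% that of T4 and 1.51% that of T5. The longest match among these was 9 bases, of T4. Seed sites on the chromosome differed in number: 3854 for T1, 33456 for T2, 13769 for T3, 2728 for T4 and 39738 for T5. T5 thus had the most sites, yet its seed was found in 11 peaks, against 92 for T2. How many peaks would hold each seed within 70 bp of the summit by site density alone was not tested. Of the 9 peaks with the T4 seed, 4 lacked that of T2.

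Median fold enrichment was higher the longer the T2 match, whereas median tags lay close together, a description of which no test was made. Unless stated otherwise, peaks without the seed are those that lacked it within 70 bp of the summit, and some held it further away. The seed lay somewhere in the peak in 176 of the 502 peaks (35.1%). The *PLAU* peak, with all 20 T2 bases matched 133 bp from its summit, was counted among the peaks without the seed. The 410 peaks without the seed had a median fold enrichment of 3.61 (quartiles 3.26 and 4.21), the 23 with 5 to 7 bases 4.57 (3.71 and 5.29), the 22 with 8 to 10 bases 5.19 (4.37 and 6.01) and the 47 with 11 bases 6.31 (5.41 and 7.21). Median tags in the same order were 35, 34, 37.5 and 39. Whether the 23 peaks with 5 to 7 bases exceeded the number that site density alone would give was not tested. Such short matches at single peaks named below are given as a description only. A score of at least 50 was reached by 37 of the 410 peaks without the seed (9.02%) and by 29 of the 47 with 11 bases (61.7%). The plot of peaks by T2 match shows that the groups overlapped: single peaks with 11 bases lay as low as the bulk of those with none. The other autosomes had like medians, 3.63 with no seed and 6.01 with 11 bases. GC content within 70 bp of the summit moved with the match as well, from a median of 40.4% with no seed to 50.4% with 11 bases, and its part in fold enrichment was not tested.

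Ranked by fold enrichment, the first 50 peaks, from 9.61 down to 5.55, included 44 with the T2 seed (88.0%), and the last 302, at 4.01 and below, included 15 (4.97%). Ranked by tags, the first 50, from 184 down to 62, included 13 (26.0%). The T2 seed was thus more frequent at the top of the first order than of the second. In 82 peaks of the chromosome a T2 match of at least 8 bases lay somewhere in the peak, with the longest match centred within 70 bp of the summit in 70 of them (85.4%), at a median distance of 14.5 bp.

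The 10 peaks with the highest fold enrichment all held the T2 seed at the summit. The long arm, which held 414 of the 502 peaks of the chromosome, carried 9 of these 10 peaks. The sites with the longest match in 8 of them, with the T2 site at *PLAU* for comparison, are shown on the strand that reads as the gRNA, with the unbroken match and the GG of the NGG in capitals. A full match is in capitals over all 20 bases.
PLAU, chr10:75670819-75670841, plus strand: GAGCCGGGCGGGAGAGGGAGgGG
SFRP5 promoter, chr10:99533518-99533540, minus strand: ctgggggctGGGAGAGGGAGaGG
between genes near CALML5, chr10:5547281-5547303, minus strand: aagacccatGGGAGAGGGAGaGG
CPN1 intron, chr10:101803724-101803746, plus strand: tgaagaggaaGGAGAGGGAGtGG
between genes near CABCOCO1, chr10:63371529-63371551, plus strand: agagagacaGGGAGAGGGAGgGG
CDH23 intron, chr10:73403057-73403079, plus strand: gggctcaggGGGAGAGGGAGaGG
between genes near FXYD4, chr10:43824258-43824280, minus strand: gagaccagaGGGAGAGGGAGaGG
INPP5A intron, chr10:134405736-134405758, plus strand: aagctacctgaGAGAGGGAGgGG
between genes near LRRTM3, chr10:67197876-67197898, minus strand: cctggataaGGGAGAGGGAGtGG
Apart from *PLAU*, the capitals cover 11 bases in 6 of these sites, 10 in *CPN1* and 9 in *INPP5A*. The first of them, at chr10:99532980-99533989, had a fold enrichment of 9.61 with 54 tags. It lay 1791 bp from the start of *SFRP5*, which encodes a secreted antagonist of Wnt signalling. The next, with a fold enrichment of 9.46 and 46 tags, lay 5700 bp from *CALML5*, a calmodulin-like gene of the epidermis. The peak in an intron of *CPN1*, which encodes the catalytic subunit of the plasma carboxypeptidase N, had 9.38 and 44 tags with 10 matched bases. A peak over a UTR of *VSIR* inside *CDH23* had 9.31 and 44 tags with a match of 5 bases at the summit, the shortest among these 10 peaks. Others lay 51105 bp from *CABCOCO1* (9.11, 125 tags), in *CDH23* (8.41), between genes 42841 bp from *FXYD4* (8.35), in *INPP5A*, an inositol phosphatase gene (8.11), 1487914 bp from the nearest start, *LRRTM3* (8.10), and 99835 bp from *CABCOCO1* (7.98, 92 tags).

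The reference sequence within 70 bp of a summit shows how such a site sits in a peak and how it compares with peaks that lack one. Capitals mark T2 matches of at least 5 bases with their NGG, on either strand, and lines are given as the plus strand.
highest fold enrichment, chr10:99533477-99533617: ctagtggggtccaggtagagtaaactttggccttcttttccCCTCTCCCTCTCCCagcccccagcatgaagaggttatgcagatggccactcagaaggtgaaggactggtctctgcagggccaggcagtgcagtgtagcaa
fold enrichment of 9.11, chr10:63371512-63371652: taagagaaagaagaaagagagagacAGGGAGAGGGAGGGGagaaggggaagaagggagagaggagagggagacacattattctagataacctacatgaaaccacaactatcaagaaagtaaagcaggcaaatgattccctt
most tags, chr10:121550468-121550608: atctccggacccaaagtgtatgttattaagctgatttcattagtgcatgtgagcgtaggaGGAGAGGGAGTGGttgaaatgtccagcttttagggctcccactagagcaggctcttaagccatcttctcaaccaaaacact
highest fold enrichment without the seed, chr10:102102331-102102471: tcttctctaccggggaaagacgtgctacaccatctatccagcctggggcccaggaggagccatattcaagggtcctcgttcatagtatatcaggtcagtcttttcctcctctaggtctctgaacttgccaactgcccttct
The last of these, 4589 bp from *SCD*, the stearoyl-CoA desaturase gene, had a fold enrichment of 6.97 and 48 tags, the highest of the peaks with no T2 seed within 70 bp of the summit.

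The 10 peaks with most tags had a median fold enrichment of 3.09. Only the 125-tag peak near *CABCOCO1* was also among the 10 with the highest fold enrichment. All 10 with most tags lay on 10q, the long arm, which held 414 of the 502 peaks of the chromosome. The peak with most tags of all, 184, lay in an intron of *INPP5F*, an inositol phosphatase gene, with a fold enrichment of 5.03 and 10 matched T2 bases, and the 125-tag peak near *CABCOCO1* had 11. The other 8 had no T2 seed within 70 bp of the summit and fold enrichments of 2.66 to 3.61. Among them were the peaks in *NPY4R2* (154 tags), *PKD2L1* (142), *ARMH3* (121), *LGI1* (119), *TRUB1* (112) and *RNLS* (110), and 1 between genes 67197 bp from *ACTA2* (111). *NPY4R2* overlapped the near-identical *NPY4R* in the annotation, so that peak cannot be given to 1 of these receptor genes.

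The peaks were spread unevenly along the chromosome. The short arm, 10p, held 88 peaks on 39.0 sequenced Mb, or 2.26 per Mb (1.81 to 2.78), and the long arm, 10q, which carries *PLAU*, held 414 on 92.3 Mb, or 4.48 per Mb (4.06 to 4.94). The ratio was 1.99 (interval 1.58 to 2.53; exact binomial test, *P* = 4.31e-10, adjusted 1.94e-09). Among peaks with a score of at least 50 the ratio was 1.48 (18 on 10p, 63 on 10q) and no longer passed the test (exact binomial test, *P* = 0.18, adjusted 0.324). The excess on 10q was larger in the peaks without a T2 seed, at 3.69 against 1.77 per Mb, than in those with it, at 0.791 against 0.487 per Mb, although the difference between these ratios was not tested. Peaks on 10p had a median fold enrichment of 4.21 and 32.5 tags, and those on 10q 3.73 and 36 tags. Gene starts were denser on 10q as well, at 6.36 against 3.97 per Mb, as were T2 seed sites, at 270 against 219 per Mb, and their part in the difference was not tested. The summit lay in a protein-coding gene for 67% of peaks on 10p and 53.4% on 10q.

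In bins of 5 Mb the density ranged from 0.487 to 11.6 per Mb. The highest bin, 100 to 105 Mb, held 58 peaks (11.6 per Mb, 8.81 to 15), followed by 95 to 100 Mb with 45 (9.0, 6.56 to 12.0) and 120 to 125 Mb with 35 (7.0, 4.88 to 9.74). The first of these holds *CPN1*, *PAX2*, a transcription factor gene of kidney development, *SCD* and *BTRC*, a ubiquitin ligase subunit gene, and 48 of its 58 peaks had no T2 seed. The lowest bins were 35 to 40 Mb, next to the centromere, with 2 peaks (0.487 per Mb, 0.059 to 1.76), and 30 to 35 and 55 to 60 Mb with 3 each (0.60, 0.124 to 1.75). The last is a gene desert around *PCDH15*, with 3 gene starts in 5 Mb. The widest space between summits, 6473641 bp, spanned the centromere and held 3173641 sequenced bases.

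Towards the end of 10q, 266 of the 502 peaks (53.0%) lay between 90 and 130 Mb, which is 30.3% of the sequenced bases, at 6.68 per Mb (5.90 to 7.54). These bounds were chosen after the values had been seen. Of these 266 peaks 12.8% held the T2 seed, and their median fold enrichment was 3.68 with 38 tags. The bin of 40 to 45 Mb, beside the centromere, held 5 peaks, 4 of them with the T2 seed, with a median fold enrichment of 6.31. Over the 26 bins with at least 4 Mb of sequence, peak density followed gene starts (Pearson's r = 0.84, Spearman's rho = 0.71) more closely than GC content (0.45 and 0.50) or T2 seed sites (0.47 and 0.53), as a description only, since bins of 1 chromosome are neighbours and share depth and base composition. For peaks without the seed the correlation with gene starts was 0.81 and for peaks with it 0.72.

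No steady fall of density with distance from *PLAU* was seen. Within 5 Mb of its start there were 49 peaks, 4.90 per Mb, against 3.73 on the rest of the chromosome, a ratio of 1.31 (interval 0.957 to 1.76; exact binomial test, *P* = 0.0766, adjusted 0.172). The ratio was 1.85 for a distance of 1 Mb (*P* = 0.0278 by the same exact test, adjusted 0.0834) and 0.799 for 10 Mb (exact test, *P* = 0.106, adjusted 0.208), so neither passed the adjusted test and the direction turned with the distance chosen. The *PLAU* peak itself was counted at each of these distances and in the closest band below. By distance band, 3 peaks lay within 0.1 Mb (15 per Mb, 3.09 to 43.8), 5 from there to 0.5 Mb (6.25, 2.03 to 14.6), 6 from 0.5 to 1 Mb (6.0, 2.20 to 13.1) and 7 from 1 to 2 Mb (3.50, 1.41 to 7.21). From 2 to 5 Mb, 21 peaks lay towards 10p (7.0 per Mb, 4.33 to 10.7) and 7 towards the end of 10q (2.33, 0.938 to 4.81). From 5 to 10 Mb the density was 1.4 on either side, and the highest density of all bands beyond 0.5 Mb was 10.5 (8.59 to 12.7) at 20 to 30 Mb towards the end of 10q. The intervals of the closest bands were so wide that a local excess of a few peaks was not detectable.

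Within 1 Mb of the start of *PLAU* there were 14 peaks, with fold enrichments between 3.26 and 4.22 and 22 to 83 tags. None of the other 13 had a score above that of the *PLAU* peak, and 12 of the 14 had an FDR of 100%. Towards 10p the peaks lay in *CAMK2G*, a calcium and calmodulin dependent kinase gene (fold enrichment 3.91, 41 tags, FDR 63.1%, 5 matched T2 bases), in *USP54*, a ubiquitin peptidase family gene (2 peaks), in *PPP3CB*, which encodes a catalytic subunit of calcineurin (3.81, 62 tags, 11 matched bases), in *NUDT13* (3.26) and in *OIT3* (2 peaks). Towards the end of 10q they lay in *ADK*, the adenosine kinase gene (3 peaks, up to 4.05), and in *KAT6B*, a histone acetyltransferase gene (4.22, 83 tags, 5 matched bases). The remaining 2 lay between genes, without the seed. Only the *PPP3CB*, *CAMK2G* and *KAT6B* peaks held the T2 seed at the summit. Between 72 and 74 Mb, bounds chosen after the values had been seen, there were 20 peaks (10 per Mb, 6.11 to 15.4), 5 of them with the T2 seed, and 7 of them in *CDH23*.

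Among peaks within 20 Mb of *PLAU*, 27 of 136 (19.9%) held the T2 seed, against 65 of 366 (17.8%) further away (Fisher's exact test, *P* = 0.605, adjusted 0.68). By band, the seed was held by 0 of 7 peaks from 1 to 2 Mb, 10 of 28 from 2 to 5 Mb and 5 of 14 from 5 to 10 Mb (35.7% each). Further out the share was 12.3% from 10 to 20 Mb, 18.9% from 20 to 30 Mb, 22.6% from 30 to 40 Mb, 12.9% from 40 to 50 Mb, 11.6% from 50 to 60 Mb and 23.9% beyond, with no steady course. Within 10 Mb the share was 11.7 percentage points above that of the rest (Fisher's exact test, *P* = 0.0352, adjusted 0.106).

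Counting from the sites, 323 sites on chromosome 10 matched at least the last 11 bases of T2 with an NGG, of which 70 (21.7%, 17.5 to 26.5) lay within 70 bp of a summit, in 47 peaks. On the other autosomes it was 17.7% of 6165, and the difference of 3.99 percentage points did not pass the test (Fisher's exact test, *P* = 0.0736, adjusted 0.172). Without the 5 Mb on either side of the longest unsequenced run of each chromosome, the difference was 0.990 points (19.4% against 18.4%). Sites in the same peak are not independent. By length, the share on chromosome 10 was 0.237% of 22766 sites with 5 bases, 0.295% of 6777 with 6, 0.121% of 2480 with 7, 0.865% of 694 with 8, 4.67% of 321 with 9, 13.7% of 95 with 10 and 23.7% of 295 with 11. It was lowest at 7 bases, where it rested on 3 sites (0.041 to 0.355%) and its interval overlapped those at 5 and 6. From there to 11 it was higher with each base. On the other autosomes the share was 0.174, 0.195, 0.304 and 0.861% at 5, 6, 7 and 8 bases, without a low value at 7. Each 11-base match also holds GGGAG followed by AGG, an inner site that was counted at its own length. The part of such inner sites in the shares at shorter lengths was not tested. Of the 28 sites with 12 or more bases, 0 lay within 70 bp of a summit, which with the same limit of 3 counts allows a share of up to 10.7% if sites were independent, and on the other autosomes 27 of 328 did (8.23%, 5.72 to 11.7). The intervals of chromosome 10 and of the other autosomes overlapped at every length but 11 bases, where they met without overlap at 19.2 to 28.9% and 17.2 to 19.2%, a comparison that was not tested.

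Of these 28 sites, 20 lay in 3 tandem groups, of 7 in an intron of *SVIL* (supervillin, an actin-binding protein), 7 between genes and 6 in *BLOC1S2*. A site from each of the groups in genes is shown, as is the longest match outside *PLAU*, because none of them had a summit within 70 bp. The 23 letters of the first and second are the same.
SVIL group, chr10:29984722-29984744, minus strand: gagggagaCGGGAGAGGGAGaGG
BLOC1S2 group, chr10:102036150-102036172, minus strand: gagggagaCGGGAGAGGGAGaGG
SH3PXD2A, chr10:105421418-105421440, plus strand: ccctCGGGCGGGAGAGGGAGaGG
The *SH3PXD2A* site, with 16 bases, lay 24114 bp from the nearest summit. The 3 sites that lay inside a peak, at *PLAU*, in *FANK1* and in *MTG1*, were 133, 104 and 135 bp from the summit. Among sites of at least 11 bases, those with no other T2 match of 8 or more bases within 500 bp lay at a summit in 41.6% of cases (32 of 77, 31.2 to 52.7) and those with a neighbour in 15.4% (38 of 246, 11.5 to 20.5). On the other autosomes these shares were 31.5% and 14.2%. The methods say that peaks in repeat sequences were removed. This list holds far more peaks than the paper's enriched set, and nearly the number of binding sites counted in a supplementary caption. Whether removal of repeats shaped these shares was not tested. Sites on 10q lay at a summit in 24.4% of cases (57 of 234) and sites on 10p in 14.6% (13 of 89), with overlapping intervals.

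Most peaks lay in introns or between genes. The summit lay in an intron for 271 peaks (54.0%), between protein-coding genes for 222 (44.2%), in a UTR for 5 and in coding sequence for 4. In all, 280 summits (55.8%) lay in a protein-coding gene, against 52.1% on the other autosomes (Fisher's exact test, *P* = 0.116, adjusted 0.208). The 2 kb upstream of a protein-coding start were overlapped by 22 peaks (4.38%), against 3.89% (Fisher's exact test, *P* = 0.552, adjusted 0.68). Of these 22 promoter peaks, 3 held the T2 seed at the summit, and only the *SFRP5* peak had a match of 8 bases or more. The others were at *MPP7*, a membrane scaffold gene (6 bases, fold enrichment 5.42), and *ZNF488*, a zinc finger gene (5 bases, 4.51). The promoter of *TRDMT1*, an RNA methyltransferase gene of the DNA methyltransferase family, held a peak without the seed at the summit (3.73, 39 tags).

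Of the 742 protein-coding genes of the chromosome, 192 held a summit in the gene or the 2 kb upstream (25.9%), against 15.2% of 18487 on the other autosomes, and 59 held 2 or more. The share followed gene length, with 58.1% of 179 genes over 100 kb, 21.3% of 343 genes of 20 to 100 kb and 6.82% of 220 genes of 20 kb or less. Genes of chromosome 10 were also longer, with a median of 40824 bp against 27077 bp on the other autosomes. The part of gene length in the difference from the other autosomes was not tested. Most peaks, 7 each, lay in *CDH23*, which encodes a cadherin of the tip links of hair cells, and in *LRMDA*, a gene of melanocyte differentiation. The 7 peaks of *CDH23* were at 1.66 per 100 kb, 4 of them had the T2 seed and the fold enrichments were 3.61 to 9.31. Those of *LRMDA*, on 1128545 bp, were at 0.619 per 100 kb, 1 had the seed and the highest fold enrichment was 4.05. Equal numbers of peaks thus stood for unlike groups. *FANK1* and *SORCS1*, a sorting receptor gene, followed with 5 peaks each, at 4.35 and 0.843 per 100 kb. Of 14 genes with 4 or more peaks, all others had 4, and among these *CPN1* had most per 100 kb, 9.60. *CPN1* had the seed at the summit in 1 of its peaks, and *FANK1* and *SORCS1* had it there in none. A *FANK1* peak did hold a 12-base match, 104 bp from its summit.

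Genes of 5 lists were looked up by their role, against the background of 25.9% for the chromosome. Signalling and growth control had 10 of 22 genes with a peak (45.5%, 26.9 to 65.3), adhesion, cytoskeleton and matrix 8 of 21 (38.1%), transcription factors and chromatin 7 of 21 (33.3%), metabolism and transport 6 of 20 (30%), and DNA repair and cell survival 2 of 15 (13.3%, 3.74 to 37.9). Median gene lengths of the lists were 114710, 118520, 29821, 58590 and 33734 bp, against 40824 bp for the chromosome. The signalling and adhesion lists, with the highest shares, were thus also those of the longest genes. The transcription factor and chromatin list, however, lay above the background with the shortest median length of the 5. Signalling genes with a peak included *SUFU*, an inhibitor of Hedgehog signalling (2 peaks), *BTRC* (2, up to 99 tags), *DOCK1* (3), *CDK1*, the mitotic kinase (2.77, 40 tags), *BMPR1A*, a BMP receptor, *CAMK2G*, *PRKCQ*, *NRP1* and *PIK3AP1*. Of those named, *CAMK2G* alone had the T2 seed at a summit. Of the transcription factor and chromatin genes, *TCF7L2*, the Wnt effector, had 3 peaks, 2 with the seed, *PAX2* had 1 with 11 matched bases (5.41, 39 tags), *KAT6B* 1 with the seed, and *ARID5B*, *EBF3*, *JMJD1C* and *LCOR* had peaks without it. Adhesion genes with a peak besides *CDH23* were *PCDH15* and *ADAM12* with 2 each, and *MYO3A*, *COL13A1*, *HTRA1*, *DMBT1* and *ITIH5* with 1, of which *COL13A1* (5.16) and *HTRA1* (4.21) had the seed. Metabolic genes were *SCD* (5.11), *HKDC1*, *CYP2C19*, *SLC16A12*, *ACADSB* and *ALDH18A1*, all without the seed. In the repair and survival list, *ERCC6*, of transcription-coupled repair, had a peak with the seed and a fold enrichment of 7.21.

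Some peaks lay close together. With summits at most 10 kb apart joined, the 502 peaks formed 453 groups, of which 43 held more than 1 peak, 92 peaks in all (18.3%), and no group held more than 3. The median distance between neighbouring summits was 120626 bp and the shortest 1024 bp. The 6 groups of 3 peaks lay in or next to *FANK1* (127 tags in all), *MSRB2* (114), *CPN1* (112), *KIAA1217* (99), *FAM204A* (98) and *BNIP3* (91). Only the *KIAA1217* group held a peak with the T2 seed at the summit.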

How the data were processed

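For the deposited list, SOAP2 (hg19) and MACS 1.4.2 were used by the authors on single-end reads, with unique reads drawn at random so that ChIP and input had the same number. Per the file headers, 62723055 ChIP and 62723050 input tags of 49 bp were used, and duplicate filtering left 44934315 and 46375481. The deposited tag counts are whole ChIP reads per peak, not normalized. The deposited fold enrichment is a ratio to the local background from the input, the deposited score is -10 times log10 of the *P* value, and the deposited FDR is a percent. The other deposited columns are positions in bp with the first base as 1, so summits were placed at start plus offset less 1. The methods add that peaks common to triplicates were kept and those in repeats and rDNA removed. The header records 1 call. The 7757 peaks listed far exceed the enriched peaks that the paper reports from pair-wise comparison. They nearly equal the number of off-target binding sites that the paper counts in a supplementary figure caption. The list is thus not the paper's set of enriched peaks, and which of these steps it went through was not tested.

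From these values, sequence was read from GRCh37 and genes from GENCODE 44 mapped to it (python 3.11.15, numpy 2.4.6, pandas 2.3.3, scipy 1.17.1, statsmodels 0.14.6). The gRNA sequences came from the study's supplement. A T2 site is an unbroken match of at least 5 bases next to an NGG, on either strand, and it counted as at a summit when these bases and the NGG lay wholly within 70 bp. Density is peaks per sequenced Mb, without unsequenced bases, and arms were split at the longest unsequenced run (39154936 to 42354935). Density ratios were tested with the two-sided exact binomial test and shares with Fisher's exact test, 9 tests adjusted together by the Benjamini-Hochberg method. Peaks off the autosomes entered no test. The functions were tested on simulated data. Named were *PLAU* and genes with a peak within 1 Mb, the 10 peaks highest in fold enrichment and in tags, the 5 genes with most peaks (ties by peaks per 100 kb), promoter peaks with 8 or more T2 bases, listed genes with a peak, the sites with the longest T2 match, and the 3 highest and lowest bins. Other genes, *SCD*, *MPP7*, *ZNF488*, *TRDMT1* and those at groups of close peaks among them, were named after their values were seen. Some genes that the rule names are not reported here. The members and lists were chosen with earlier results of these data known. The alternatives were a score of at least 50, joined neighbouring peaks, removal of 5 Mb around the longest unsequenced run, other lengths, seeds, windows, distances and promoters, and chromosome 1 left out.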

Additional observations from a re-analysis of the deposited data

How the results depend on the processing

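Of 51 alternatives over the 9 tests, 45 kept the direction and the side of the threshold. The density ratio of chromosome 10 to the other autosomes passed the test under all 5 of its alternatives (1.35 to 1.52). The ratio of 10q to 10p passed in 3 of 4 and fell to 1.48 with only peaks scoring at least 50. The share of T2 sites at a summit passed the test with sites of at least 5 bases, where it was 0.110 percentage points higher on chromosome 10. That count is not separate from the 11-base sites. Each of those holds GGGAG followed by AGG, so it was counted again through this inner site. Without 5 Mb around the longest unsequenced runs, the difference in T2 sites at a summit fell from 3.99 to 0.990 points, that in T2 share from 1.12 to 0.136 and that in promoter share from 0.488 to 0.042, none of them past the threshold. The direction turned in 4 alternatives, none past the threshold before or after: the density ratio at 10 Mb from *PLAU* was 0.799, the T2 share with an 11-base seed was -0.273 percentage points, the T2 share near *PLAU* counted over whole peaks was -6.74, and the promoter share among peaks scoring at least 50 was -0.210. The cause was not tested. With 1 list the spread between replicates is unknown, the list holds no input tags, the smallest peak held 17 tags, and weaker binding was not detectable at this depth.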

Other observations

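The first base of the NGG differed among the 323 sites on chromosome 10 with at least 11 matched T2 bases: sites with TGG lay at a summit in 8 of 13 cases (61.5%, Wilson interval 35.5 to 82.3) and sites with AGG in 49 of 261 (18.8%, 14.5 to 24.0). On the other autosomes the shares were 40.3% of 206 and 16.2% of 5239. Among sites with no other T2 match of 8 or more bases within 500 bp, those with AGG lay at a summit in 14 of 34 cases (41.2%) and those with another NGG in 18 of 43 (41.9%). These groupings were chosen after the data had been seen, and no test was made.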
